A study of Mus musculus and Homo sapiens with 34 samples.

Results

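The Krüppel-like factors are zinc finger transcription factors, and 10 of them, Klf2, Klf3, Klf4, Klf5, Klf6, Klf7, Klf9, Klf10, Klf11 and Klf13, are described here across every culture and treatment of the study. They were selected by name, with their human counterparts in the human tables. All 10 were listed in each of the 7 count tables, which list 13 to 16 KLF genes each, out of 21401 mouse and 27030 human gene identifiers in all. All 10 also passed the filter on low counts in every table, so no member was lost from any test.

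The study sequenced poly(A) RNA from 34 libraries in 17 groups of 2 replicates, 22 of them mouse (lung tumour organoids and a lung line) and 12 human (established lines of lung adenocarcinoma). The 3154 lung organoids carry, among their alleles, p53frt, Rosa-FSF-CreERT2 and Hnf4aflox, and every 3154 group shares them. 4-hydroxytamoxifen (4OHT) switches on the CreERT2 recombinase and so deletes the floxed Hnf4a, and ethanol is its vehicle. One 3154 experiment compared 4OHT with ethanol 2 weeks later. The other crossed 4OHT or ethanol with 48 hours of MRTX1133 at 3 nM or vehicle, and its time after 4OHT is not given in the sources used here. The 1027B lung organoids and the 3311 lung cell line carry, among their alleles, p53frt, Rosa-FSF-CreERT2, Foxa1flox and Foxa2flox, and none of their groups is labelled with a treatment that deletes Foxa1 or Foxa2. 1027B received vehicle, MRTX1133 at 20 nM or trametinib at 10 nM, and 3311 received vehicle or trametinib at 50 nM, each for 48 hours. The human lines H358 and H1651 received vehicle or trametinib at 20 nM for 48 hours, and in a separate experiment H1651 received doxycycline for 7 days, which induces HNF4A from a lentiviral construct, or none. MRTX1133 is a small-molecule inhibitor that acts upstream of the ERK pathway, and trametinib inhibits the kinases MEK1 and MEK2, which activate ERK. Nothing in the sources used here says whether the 2 replicates of a group came from separate cultures, so p-values measure only the spread between these libraries, which may be technical.

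Krüppel-like factors share a set of C-terminal zinc fingers that bind GC-rich and CACCC sequences, and they differ in the part of the protein that recruits partners. KLF2, KLF4, KLF5, KLF6 and KLF7 are mainly activators that recruit acetyltransferases, KLF3 represses through CtBP proteins, and KLF9, KLF10, KLF11 and KLF13 bind the Sin3a corepressor. In epithelia KLF5 is known for proliferating progenitor cells and KLF4 for cells that leave the cycle and differentiate, while KLF2 is known from lung development and from endothelium, where ERK5 and MEF2 factors induce it. Several members are immediate-early or early-response genes, KLF10 and KLF11 being known as TGF-beta-inducible early genes and KLF9 as a glucocorticoid and thyroid hormone target.

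The upstream bases of Klf4 and Klf3 are shown because these were the members called in the most comparisons, 7 and 4 of 11, among those with an entry in the sequence table. Klf10 and Klf5, called in 5 and 4, are not among them. The sequences come from RefSeq, build GRCm38.p6, where 8 of the 10 members matched, and are the 250 bases before the start site, 5′ to 3′ on the gene's strand. The Klf4 stretch lies at chr4:55532476-55532725 on the minus strand and the Klf3 stretch at chr5:64803271-64803520 on the plus strand. Capitals mark every match to the motifs searched.
Klf4: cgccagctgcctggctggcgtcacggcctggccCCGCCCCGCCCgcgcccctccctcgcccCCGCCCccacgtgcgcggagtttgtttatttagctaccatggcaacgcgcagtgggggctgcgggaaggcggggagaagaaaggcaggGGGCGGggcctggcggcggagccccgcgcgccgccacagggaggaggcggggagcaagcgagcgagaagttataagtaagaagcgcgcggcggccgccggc
Klf3: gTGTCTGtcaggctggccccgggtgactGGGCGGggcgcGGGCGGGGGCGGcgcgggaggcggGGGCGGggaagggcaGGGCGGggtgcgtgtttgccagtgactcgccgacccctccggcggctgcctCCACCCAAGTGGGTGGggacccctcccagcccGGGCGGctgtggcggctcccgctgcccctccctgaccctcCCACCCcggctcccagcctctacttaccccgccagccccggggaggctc
In Klf4 the capitals are 4 GC boxes (GGGCGG on either strand), 2 of which overlap by a base, in a stretch of 74% G and C. In Klf3, at 78.4% G and C, they are 6 GC boxes, 3 CACCC boxes (CCACCC), 1 NKX2-1 core (CAAGTG) that overlaps CACCC boxes, and 1 SMAD motif (CAGACA). The GC box was found in 7 of the 8 members with an entry, Klf9 being the exception, and in 32.7% of all 32851 promoter stretches of that length. The CACCC box was found in 4 of 8 (Klf2, Klf3, Klf7 and Klf13) and in 28.1% of all stretches, the NKX2-1 core in 1 of 8 and in 11.6%, and the SMAD motif in 1 of 8 and in 17.1%. The Klf9 stretch held 1 FOXO motif (TGTTTAC, 3.17% of all stretches) and 1 AP-1 motif (TGANTCA, 6.75%), and the Klf2 stretch held 1 MEF2 motif (2.92%). No member's stretch held the letters of the HNF4 (CAAAGTNCA, 1.19%), CRE (TGACGTCA, 1.55%), ETS (CCGGAA, 12%), CArG box (1.47%) or glucocorticoid receptor (AGAACA, 16.1%) motifs, each searched on both strands. A match is a run of letters and is not a measured site.

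Library totals ranged from 19692517 to 45284286 counts. Hnf4a, the deleted gene, was at 315 and 427 CPM (counts per 1000000 counts of the library) with ethanol and at 53.5 and 68.0 after 2 weeks, and at 180 to 230 with ethanol against 25.3 to 50.4 with 4OHT in the 48-hour experiment, so the labels held. HNF4A was at 35.9 and 47.1 CPM without doxycycline and at 94.4 and 96.8 with it, and no H358 library had a count of it. The 7 pan-epithelial markers were listed in every table and summed to between 4177 and 11617 CPM. They were not alike across cultures. In H1651 KRT8 and KRT18 made up most of the sum, while EPCAM was at 0.993 to 3.81 CPM and KRT19 at 6.41 to 8.70. In 3311 with vehicle Cldn4 was at 0.186 to 0.956 CPM. The lung epithelial markers, of which 6 or 7 of 7 were listed in mouse tables and 4 or 5 in human tables, summed to 534 to 17997 CPM in mouse and to 28.5 to 216 in human libraries. CPM here rests on the library total scaled by TMM within its own table, so levels from different tables were not scaled together and are set side by side only as a description. In bulk RNA, fewer cells of a type and less RNA per cell cannot be told apart.

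Per kilobase of exon, which allows levels to be compared between genes, Klf6, Klf4 and Klf5 led the family in mouse cultures and Klf2, Klf7 and Klf11 were mostly last. Klf6 was first in 8 of the 11 mouse groups, Klf5 in both ethanol groups of the 48-hour experiment and Klf4 in 1027B vehicle. In 3154 with ethanol at 48 hours Klf5 stood at 87.2 ± 10.8 CPM per kilobase (SD, n = 2) and Klf6 at 67.1 ± 0.082, while Klf2 stood at 0.534 ± 0.401. After 4OHT in the same experiment Klf6 led at 58.2 ± 1.11, Klf4 followed at 38.1 ± 0.049 and Klf5 was at 30.6 ± 0.772. In 1027B vehicle Klf4 led at 67.2 ± 0.193, and Klf6 at 35.1 ± 0.607 and Klf5 at 34.6 ± 7.22 did not differ beyond their spread. In 3311 vehicle Klf6 led at 89.4 ± 2.83, followed by Klf5 at 46.8 ± 2.54, and Klf4 at 28.6 ± 15.3 and Klf10 at 25.1 ± 4.15 did not differ beyond their spread. With the longest transcript in place of all exon bases Klf6 was first in 6 of the 11 groups, Klf5 in 3, and Klf4 and Klf3 in 1 each. The changes at the top were in 1027B, where Klf5 came first with MRTX1133 and Klf3 moved from rank 4 to rank 1 with trametinib, while Klf6 moved from rank 1 to rank 3 in both groups. In human cells, where no gene length was used, no order between genes is given.

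**Figure D1:**
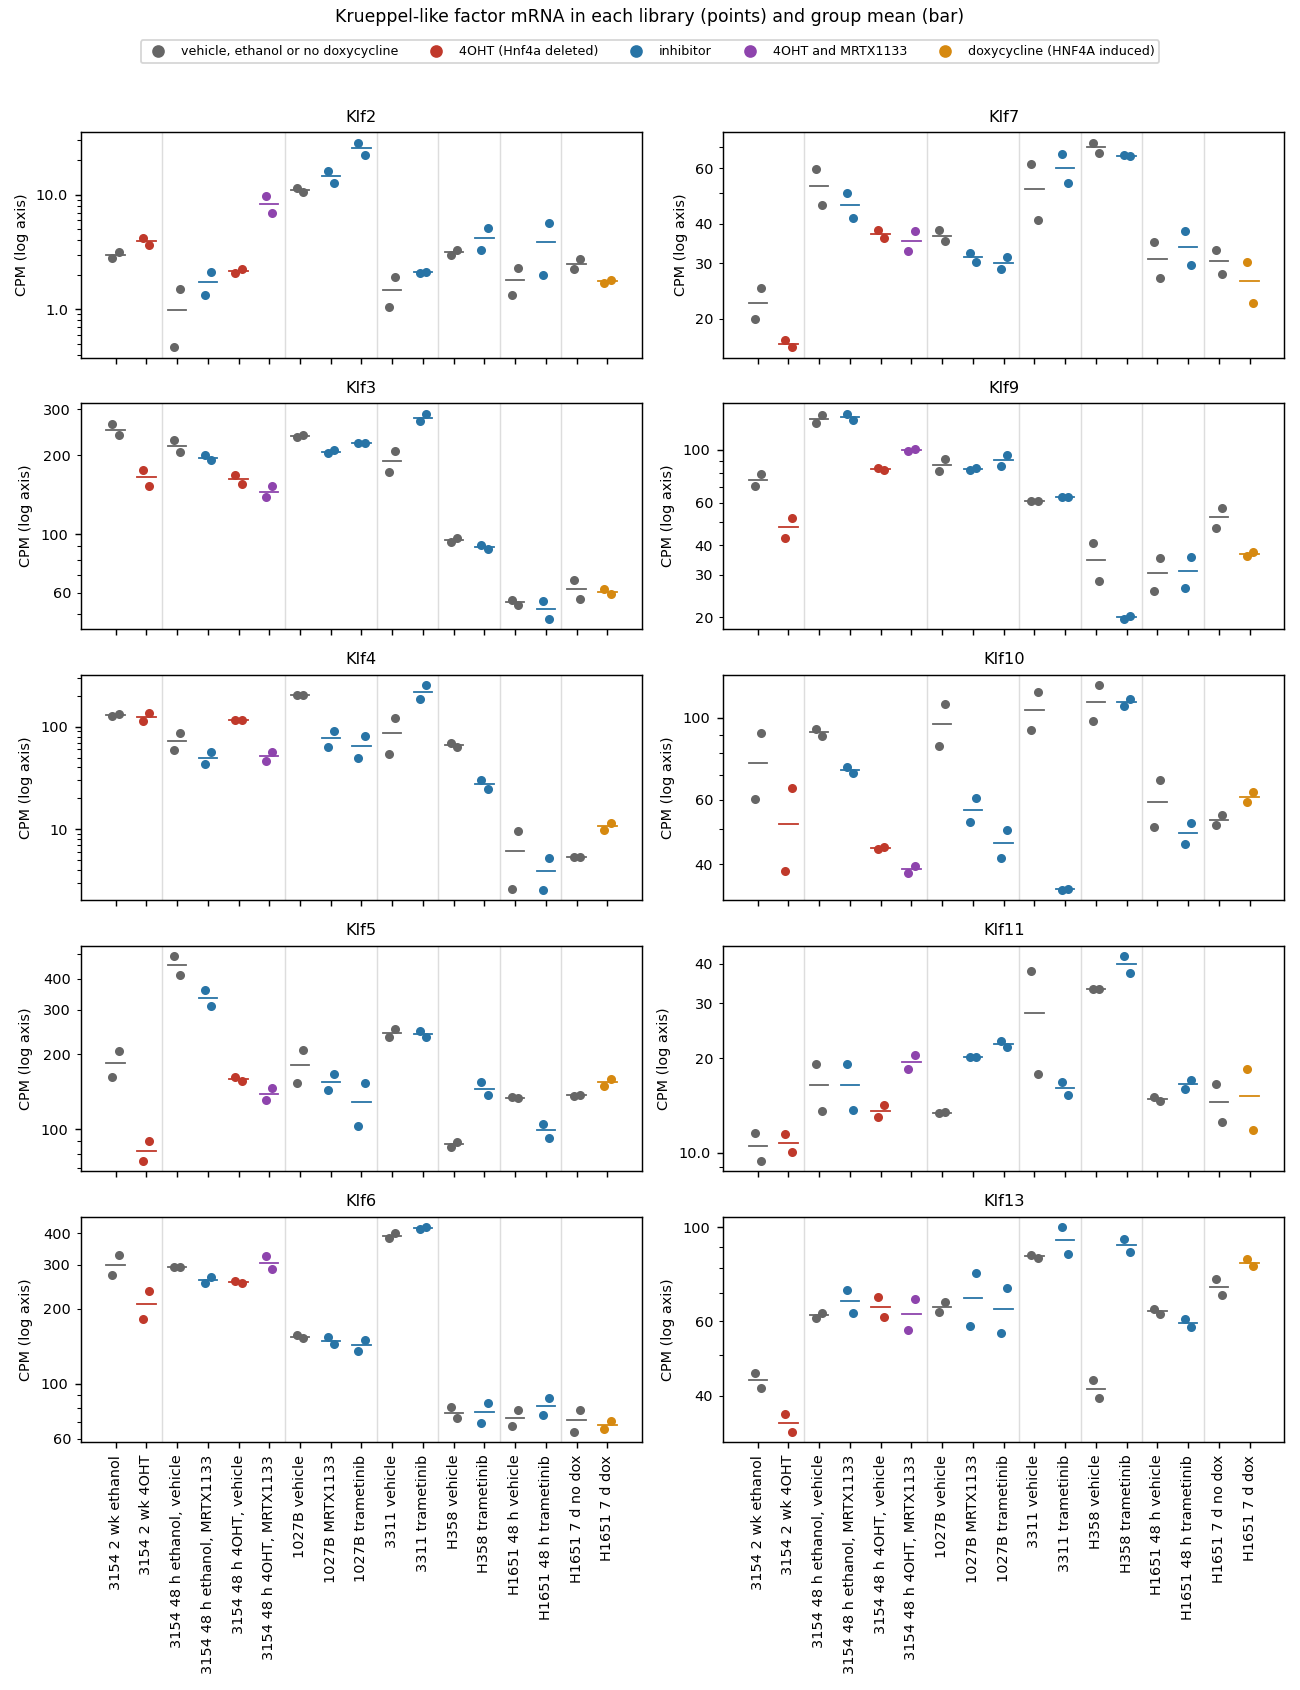
Level of each of the 10 members in every library, in CPM on a log axis, 2 points per group, with a bar at the group mean. Vertical lines part the 7 experiments. Klf4 and Klf2 cover the widest ranges, and Klf6 and Klf3 are lower in the human lines than in every mouse library.

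Changes were tested with edgeR's quasi-likelihood test on each whole table, with Benjamini-Hochberg adjustment over all genes of the table, and "called" means an adjusted p below 0.05. Of 110 pairs of a member and a comparison with its own vehicle, 29 were called, 11 higher and 18 lower. Klf4 was called in 7 of 11 comparisons, 3 higher and 4 lower. Klf10 was called in 5, each time lower. Klf3 and Klf5 were called in 4 each, Klf2 in 3, each time higher, Klf9 in 3, each time lower, Klf11 in 2, both higher, and Klf13 in 1. Klf6 and Klf7 were called in none by edgeR. These counts are from fits without a block for the replicate number. With that block Klf6 was called lower at 2 weeks and KLF7 lower with doxycycline.

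Deletion of Hnf4a at 2 weeks called 2 of 10 members, both lower, where 9.81% of all genes were called, 4.03% higher and 5.78% lower. With the replicate number as a block it called 6 members and 31.5% of genes. DESeq2 called 3 members and 2303 of 14492 genes at 2 weeks. In the 48-hour experiment deletion called 5 of 10 with vehicle, 1 higher and 4 lower, against 31% of all genes (15.3% higher and 15.7% lower). Deletion in the presence of MRTX1133 also called 5 of 10, 1 higher and 4 lower, against 27.7% (13.2% higher and 14.5% lower). These last 2 comparisons use separate libraries. The median log2 change over the 10 members was −0.35 with vehicle and −0.24 with MRTX1133, beside 0.01 and −0.01 over all genes tested.

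MRTX1133 called no member in 3154 with Hnf4a intact, by edgeR or by DESeq2, where edgeR called 0.349% of genes. There 3 members had an unadjusted p below 0.05, beside 1820 of 15458 genes. With Hnf4a deleted MRTX1133 called 2 of 10, 1 higher and 1 lower, against 4.64% (2.1% higher and 2.54% lower). A fit of only the groups compared called 4 members there and 3932 of 14847 genes. The test of whether the MRTX1133 response differed with Hnf4a status called 0 members and 0% of genes, and DESeq2 called no member. In that test 1 member, Klf6, had an unadjusted p below 0.05, beside 1150 of 15458 genes. In 1027B, MRTX1133 called 3 of 10, 1 higher and 2 lower, against 6.27% (3.01% higher and 3.26% lower), and trametinib 4 of 10, 2 higher and 2 lower, against 26.7% (13.5% higher and 13.2% lower). With the replicate number as a block, MRTX1133 called 3 members against 24.1% of genes and trametinib 5 against 44.9%, so that both member counts lay near the share of all genes. The 2 inhibitors share their vehicle libraries. Set against each other in 1027B they differed in 0 members and 0% of genes by edgeR. There 1 member had an unadjusted p below 0.05, beside 2357 of 14555 genes, and DESeq2 called 1 member and 712 genes. With the block the 2 inhibitors differed in 2 members, Klf2 and Klf10, and in 14.1% of genes.

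Trametinib called 3 of 10 members in 3311, 2 higher and 1 lower, against 39% of genes (19.4% higher and 19.6% lower), and 4 of 10 in H358, 2 higher and 2 lower, against 46.8% (23.5% higher and 23.2% lower). Both shares are near that of all genes. In H1651 it called 0 members and 0% of genes by edgeR, and no member by DESeq2. There 1 member had an unadjusted p below 0.05, beside 597 of 18277 genes. With the replicate number as a block trametinib called 4 members and 10.3% of genes in H1651. Doxycycline called 1 of 10 members in H1651, higher, against 1.42% (1.04% higher and 0.386% lower). With the replicate number as a block it called 6 members and 17.6% of genes.

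**Figure D2:**
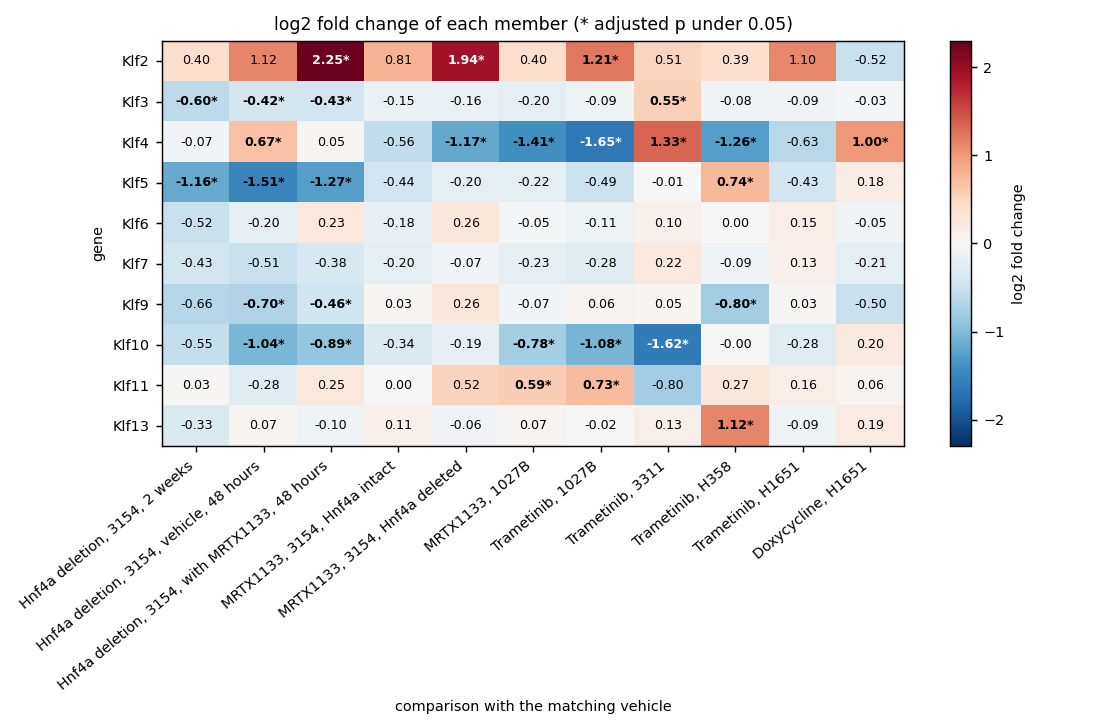
Log2 fold change of each member (rows) in each of the 11 comparisons with its own vehicle (columns), with red for higher and blue for lower in the treated group. An asterisk and bold type mark an adjusted p below 0.05. Klf4 changes sign between columns, the marked Klf10 cells are all blue and the marked Klf2 cells are all red.

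Among the activators, Klf5 (ENSMUSG00000005148), a factor of proliferating epithelial progenitors, showed the largest fall with Hnf4a deletion. At 48 hours with vehicle it was at 493 and 414 CPM with ethanol and at 162 and 157 with 4OHT. The 4OHT libraries lay far below both ethanol libraries, a change of −1.51 ± 0.14 (log2, SE), 2.85-fold lower, with an edgeR adjusted p of 0.000462. With MRTX1133 present it was at 359 and 309.8 CPM with ethanol and at 131 and 147 with 4OHT, −1.27 ± 0.14 (edgeR adjusted p 0.000816). At 2 weeks it was at 162 and 205 CPM against 75.0 and 89.6, −1.16 ± 0.17 (edgeR adjusted p 0.0180). The fall was seen with no overlap of groups in all 3 comparisons. Both 48-hour calls held without any 1 of their libraries, and the 2-week call was lost without 4OHT replicate 1 (−1.04, edgeR adjusted p 0.0844).

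The KLF5 response to trametinib differed between the 2 human lines. In H358 it was at 85.4 and 89.1 CPM with vehicle and at 154 and 137 with trametinib, a rise of 0.74 ± 0.11 (log2, SE), 1.67-fold, with an edgeR adjusted p of 0.000955. In H1651 it was at 134 and 133 CPM with vehicle and at 105 and 92.8 with trametinib, −0.43 ± 0.10, which did not pass (edgeR adjusted p 0.999, unadjusted 0.00692), though the groups did not overlap. This fall passed with the replicate number as a block (−0.43, edgeR adjusted p 4.96e-08). The difference between the responses was itself tested in a joint fit and passed, at 1.20 ± 0.15 on the log2 scale (edgeR adjusted p 0.00169). In 3311 Klf5 was at 234 and 253 CPM with vehicle and at 248 and 235 with trametinib, values that overlapped. In 1027B it was at 154 and 207 with vehicle and at 104 and 153 with trametinib, a change that did not pass, but that passed with the replicate number as a block (−0.50, edgeR adjusted p 0.00261). In H1651 KLF5 was at 149.6 and 159.7 CPM with doxycycline and at 136 and 138 without it, 0.18 ± 0.07, which did not pass (edgeR adjusted p 0.353). That rise passed with the block (0.18, edgeR adjusted p 0.00529).

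Klf4 (ENSMUSG00000003032), known as a factor of differentiating epithelium and of pluripotency, moved in both directions. In 1027B it was at 204 and 205 CPM with vehicle, at 63.7 and 90.8 with MRTX1133 and at 49.7 and 80.8 with trametinib. Both inhibitor groups lay below both vehicle libraries. MRTX1133 lowered it by 2.65-fold (−1.41 ± 0.25, edgeR adjusted p 0.0275) and trametinib by 3.14-fold (−1.65 ± 0.25, edgeR adjusted p 0.00556). Leaving out any 1 of its 4 libraries ended the MRTX1133 call (−1.67 to −1.17, edgeR adjusted p up to 0.123), and none ended the trametinib call. Beside these and the other 1027B changes, the 7 lung epithelial markers summed to 6596 to 10654 CPM with vehicle, 3393 to 5058 with MRTX1133 and 2727 to 3263 with trametinib. Sftpb carried the difference (5948 to 9849 CPM with vehicle and 649 to 1333 with trametinib), Sftpc went the other way (26.8 to 104.5 and 978 to 1137), and Nkx2-1 was at 312 to 316 and 413 to 431. The part of these markers was not tested.

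KLF4 also fell in H358, from 68.9 and 62.9 CPM with vehicle to 30.5 and 24.5 with trametinib, −1.26 ± 0.14 (edgeR adjusted p 0.000238). In 3311, Klf4 moved the other way, from 54.3 and 120.2 CPM with vehicle to 184 and 256 with trametinib. It was 2.52-fold higher (1.33 ± 0.35, edgeR adjusted p 0.0239), and the ratio between its 2 vehicle libraries was larger than that between the 2 treated ones. The change was 2.01 without vehicle replicate 2 and 0.87 without vehicle replicate 1, and the call held in all 4 fits that left out a library. A joint fit of the 2 mouse cultures, chosen after these values were seen, gave a difference in trametinib response of 2.97 ± 0.51 between 3311 and 1027B (edgeR adjusted p 0.00908). Doses differed between these cultures, 50 nM in 3311 and 10 nM in 1027B. The joint fit called 2 of 10 members, 1 higher and 1 lower, against 12.3% of genes (5.91% higher and 6.38% lower).

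In 3154, Klf4 rose with Hnf4a deletion at 48 hours with vehicle, from 59.9 and 86.6 CPM to 116 and 116 (0.67 ± 0.22, edgeR adjusted p 0.0483). With MRTX1133 present the 2 groups overlapped, at 42.8 and 56.7 CPM with ethanol and at 45.9 and 57.2 with 4OHT. The same libraries read the other way show MRTX1133 lowering Klf4 with Hnf4a deleted, by 2.26-fold (−1.17 ± 0.22, edgeR adjusted p 0.0283). With Hnf4a intact the values gave −0.56 ± 0.22, which did not pass (edgeR adjusted p 0.367). The difference between these 2 MRTX1133 responses is in the interaction test above, which called no member. Leaving out any 1 library ended the call with Hnf4a deleted (−1.34 to −1.02, edgeR adjusted p up to 0.285). The deletion call was lost without either 4OHT vehicle library or without ethanol replicate 1 (0.42, edgeR adjusted p 0.150), and also with no count filter (edgeR adjusted p 0.0516) and with only the groups compared (edgeR adjusted p 0.0800). At 2 weeks Klf4 was at 128 and 133 CPM with ethanol and at 113 and 136 with 4OHT, and the groups overlapped.

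In H1651, KLF4 stood at 5.32 and 5.38 CPM without doxycycline and at 9.82 and 11.6 with it, 2.00-fold higher (1.00 ± 0.16, edgeR adjusted p 0.0356). It was the only member called in that comparison without a block, and the call was lost without doxycycline replicate 2 (0.88). With trametinib in H1651, KLF4 was at 2.58 and 5.25 CPM against 2.60 and 9.62, and the groups overlapped. It passed with the replicate number as a block (−0.55, edgeR adjusted p 0.0100). The H1651 fibroblast marker list, all 7 of 7 listed, summed to 663 to 757 CPM without doxycycline and to 413 to 455 with it, and its part in the result was not tested.

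Klf2 (ENSMUSG00000055148), a factor of lung and vascular development, was the lowest of the members per kilobase in 6 of the 11 mouse groups, with 11 to 642 counts per mouse library. In the 48-hour 3154 experiment it was at 0.463 and 1.51 CPM with ethanol and vehicle, at 1.34 and 2.13 with ethanol and MRTX1133, at 2.09 and 2.23 with 4OHT and vehicle, and at 9.70 and 6.89 with 4OHT and MRTX1133. The 2 libraries with both agents stood above the other 6. In the presence of MRTX1133, deletion raised it 4.77-fold (2.25 ± 0.43, edgeR adjusted p 0.00751), and with Hnf4a deleted MRTX1133 raised it 3.83-fold (1.94 ± 0.43, edgeR adjusted p 0.0455). With vehicle alone deletion gave 1.12 ± 0.49, which did not pass (edgeR adjusted p 0.116), and the interaction test did not call it. The first call was lost without replicate 1 of either MRTX1133 group (1.96 and 1.99, edgeR adjusted p 0.0518 and 0.0572), and the second without any 1 library (1.67 to 2.17, edgeR adjusted p up to 0.353).

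In 1027B, Klf2 was at 11.5 and 10.6 CPM with vehicle, at 16.3 and 12.7 with MRTX1133 and at 28.6 and 22.4 with trametinib. Trametinib raised it 2.31-fold (1.21 ± 0.19, edgeR adjusted p 0.00649), while the MRTX1133 libraries lay above the vehicle ones without a call. Between the 2 inhibitors the difference was −0.81 ± 0.19 (log2, MRTX1133 less trametinib), which did not pass (edgeR adjusted p 0.144) and passed with the replicate number as a block (−0.81, edgeR adjusted p 0.00544). In 3311 it was at 1.04 to 2.13 CPM in all 4 libraries, and in H1651 with trametinib KLF2 was at 2.01 and 5.70 CPM against 1.34 and 2.27, with overlap. KLF2 passed in H1651 with the replicate number as a block (1.02, edgeR adjusted p 4.5e-05). Of 7 endothelial markers, 2 were listed in the 1027B libraries (Pecam1 and Vwf), and their sum was 2.86 to 3.95 CPM with vehicle, 4.57 to 7.13 with MRTX1133 and 8.10 to 10.03 with trametinib. Vwf carried that difference (2.47 to 3.74 CPM with vehicle and 7.70 to 9.84 with trametinib), and Pecam1 was at 0.217 to 0.387 and 0.187 to 0.401. In the 48-hour 3154 libraries 3 of 7 were listed and the sum was 1.17 to 2.40 CPM with ethanol and vehicle, 2.21 to 2.76 with ethanol and MRTX1133, 3.60 to 4.15 with 4OHT and vehicle and 5.44 to 5.54 with both. Cdh5, Kdr, Tek and Cldn5 were not listed in either table, and the 4 of 7 leukocyte markers listed at 48 hours summed to 0.673 to 1.17 CPM with ethanol and vehicle, 1.21 to 2.64 with ethanol and MRTX1133, 1.59 to 3.04 with 4OHT and vehicle and 6.18 to 7.06 with both. With both agents Lyz2 (3.19 to 5.36 CPM) and Csf1r (up to 2.38) made up most of that sum, and Ptprc was at 0.118 to 0.284. The part of these markers in the Klf2 result was not tested.

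Klf6 (ENSMUSG00000000078), a ubiquitous early-response factor, and Klf7 (ENSMUSG00000025959), best known in neurons and adipocytes, were called in no comparison by edgeR without a block. Klf6 ranged from 135 to 425 CPM in mouse libraries and from 64.1 to 87.5 in human ones. At 2 weeks it was at 272 and 327 CPM with ethanol and at 182 and 236 with 4OHT, −0.52 ± 0.18, without overlap but without a call (edgeR adjusted p 0.124). It passed with the replicate number as a block (−0.53, edgeR adjusted p 0.00723). The interaction test gave Klf6 0.44 ± 0.16 (edgeR adjusted p 0.609). Klf7 ranged from 16.2 to 66.6 CPM in mouse libraries and from 22.4 to 72.4 in human ones. With deletion at 48 hours and vehicle it was at 59.7 and 45.9 CPM against 38.1 and 36.0, −0.51 ± 0.17 (edgeR adjusted p 0.0582). In 1027B trametinib gave −0.28 ± 0.12 (edgeR adjusted p 0.122). With the replicate number as a block KLF7 passed in H1651 with doxycycline (−0.21, edgeR adjusted p 0.0353). In the reference annotation, 39.4% of Klf7 exon bases lie opposite Gm13748 and Gm26649, and whether counting used strand is not given in the sources used here, so its reads and theirs cannot be told apart.

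Klf3 (ENSMUSG00000029178), the CtBP-recruiting repressor, fell with Hnf4a deletion in each of the 3 comparisons. At 2 weeks it was at 262 and 238 CPM with ethanol and at 176 and 153 with 4OHT (−0.60 ± 0.13, edgeR adjusted p 0.0476). At 48 hours it was at 229 and 206 CPM against 169 and 155 with vehicle (−0.42 ± 0.12, edgeR adjusted p 0.0328), and at 200.1 and 192 against 138 and 152 with MRTX1133 (−0.43 ± 0.12, edgeR adjusted p 0.0331). The groups did not overlap in any of the 3, and the fall was between 1.34-fold and 1.52-fold. The calls are near the threshold, and leaving out 1 library ended the 2-week call in 3 of 4 fits, the 48-hour vehicle call in 3 of 4 and the MRTX1133 call in 4 of 4 (−0.71 to −0.35 over all, edgeR adjusted p up to 0.229). Upper-quartile scaling ended all 3 calls (edgeR adjusted p 0.0555 to 0.0752).

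With trametinib in 3311, Klf3 moved the other way, from 173 and 208 CPM to 269 and 288. It was 1.47-fold higher (0.55 ± 0.15, edgeR adjusted p 0.0260), a call lost without vehicle replicate 1 or without either trametinib library (0.42 to 0.69, edgeR adjusted p up to 0.119). In 1027B it lay between 203 and 239 CPM in all 6 libraries, and in human libraries KLF3 lay between 88.3 and 96.6 CPM in H358 and between 47.9 and 67.2 in H1651. The difference in trametinib response between 3311 and 1027B was 0.63 ± 0.18 for Klf3, which did not pass (edgeR adjusted p 0.0535) and passed with the replicate number as a block (0.63, edgeR adjusted p 0.0295). In the reference annotation 3.59% of Klf3 exon bases lie opposite Gm20033.

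Among the Sin3-binding members, Klf10 (ENSMUSG00000037465), a TGF-beta-inducible early gene, fell with both inhibitors in 1027B, with trametinib in 3311 and with Hnf4a deletion at 48 hours. In 3311 it was at 92.7 and 117 CPM with vehicle and at 34.2 and 34.4 with trametinib, 3.06-fold lower (−1.62 ± 0.16, edgeR adjusted p 0.000878). In 1027B it was at 83.6 and 109 CPM with vehicle, at 52.2 and 60.5 with MRTX1133 (−0.78 ± 0.17, edgeR adjusted p 0.0443) and at 41.6 and 49.7 with trametinib (−1.08 ± 0.17, edgeR adjusted p 0.00575). No treated library reached the level of a vehicle library in these comparisons. Both trametinib calls held without any 1 library, and the MRTX1133 call was lost without any 1 of its 4 (−0.96 to −0.55, edgeR adjusted p up to 0.216). In the block by replicate number, Klf10 also differed between the 2 inhibitors (0.31, edgeR adjusted p 0.0450, MRTX1133 less trametinib).

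In the 48-hour 3154 experiment Klf10 was at 93.4 and 89.4 CPM with ethanol and vehicle and at 44.1 and 44.7 with 4OHT and vehicle, 2.06-fold lower (−1.04 ± 0.12, edgeR adjusted p 0.000843). With MRTX1133 present it was at 73.7 and 70.8 CPM against 38.0 and 39.7, −0.89 ± 0.12 (edgeR adjusted p 0.00147). The 4 libraries with 4OHT lay below the 4 with ethanol, and both calls held without any 1 library. Beside these and the other 48-hour changes, the 7 lung epithelial markers summed to 6676 to 9082 CPM with ethanol and vehicle, 11237 to 14181 with ethanol and MRTX1133, 8442 to 9840 with 4OHT and vehicle and 13658 to 17997 with both. Scgb1a1 was at 33.6 to 68.5, 137 to 192, 425 to 632 and 936 to 953 CPM in the same order. Sftpc made up most of the rise of the sum with MRTX1133, at 3154 to 5459, 7577 to 10516, 3079 to 3805 and 9169 to 13727 CPM, while Sftpb was at 2847 to 2867, 2575 to 2611, 4157 to 4599 and 2447 to 2720. The part of these markers was not tested. At 2 weeks the Klf10 groups overlapped, at 60.1 and 90.7 CPM with ethanol and at 38.5 and 64.5 with 4OHT. Klf10 passed there with the replicate number as a block (−0.57, edgeR adjusted p 0.00721). In H358 KLF10 was at 98.1 and 123 CPM with vehicle and at 108 and 113 with trametinib, with overlap. In H1651 KLF10 passed only with the replicate number as a block. There it gave −0.27 with trametinib (edgeR adjusted p 0.00179) and 0.20 with doxycycline (edgeR adjusted p 0.00755).

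Klf9 (ENSMUSG00000033863), a hormone-responsive factor, fell with Hnf4a deletion and in H358. At 48 hours it was at 129.8 and 140.3 CPM with ethanol and at 84.0 and 82.6 with 4OHT (−0.70 ± 0.11, edgeR adjusted p 0.00366). With MRTX1133 present it was at 142 and 133 CPM against 98.9 and 101 (−0.46 ± 0.11, edgeR adjusted p 0.0203). At 2 weeks it was at 70.6 and 79.2 CPM against 42.7 and 52.1, −0.66 ± 0.16, which did not pass (edgeR adjusted p 0.0569). It passed there with the replicate number as a block (−0.66, edgeR adjusted p 0.00376). In all 3 comparisons the groups did not overlap. The vehicle call was lost without 4OHT replicate 2 (−0.69, edgeR adjusted p 0.0527), and the MRTX1133 call without ethanol replicate 1 or either 4OHT library (−0.51 to −0.41 over the 4 fits, edgeR adjusted p up to 0.131) and with upper-quartile scaling (edgeR adjusted p 0.0548). In H358 KLF9 was at 40.8 and 28.4 CPM with vehicle and at 19.7 and 20.1 with trametinib, 1.74-fold lower (−0.80 ± 0.18, edgeR adjusted p 0.00704), a call that held without any 1 library. In H1651 it was at 47.0 and 57.4 CPM without doxycycline and at 36.1 and 37.5 with it, −0.50 ± 0.11, which did not pass (edgeR adjusted p 0.0897). KLF9 passed there with the replicate number as a block (−0.50, edgeR adjusted p 1.51e-12). In 3311 Klf9 lay between 61.0 and 63.4 CPM in all 4 libraries, and it was not called there or in 1027B.

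**Figure D3:**
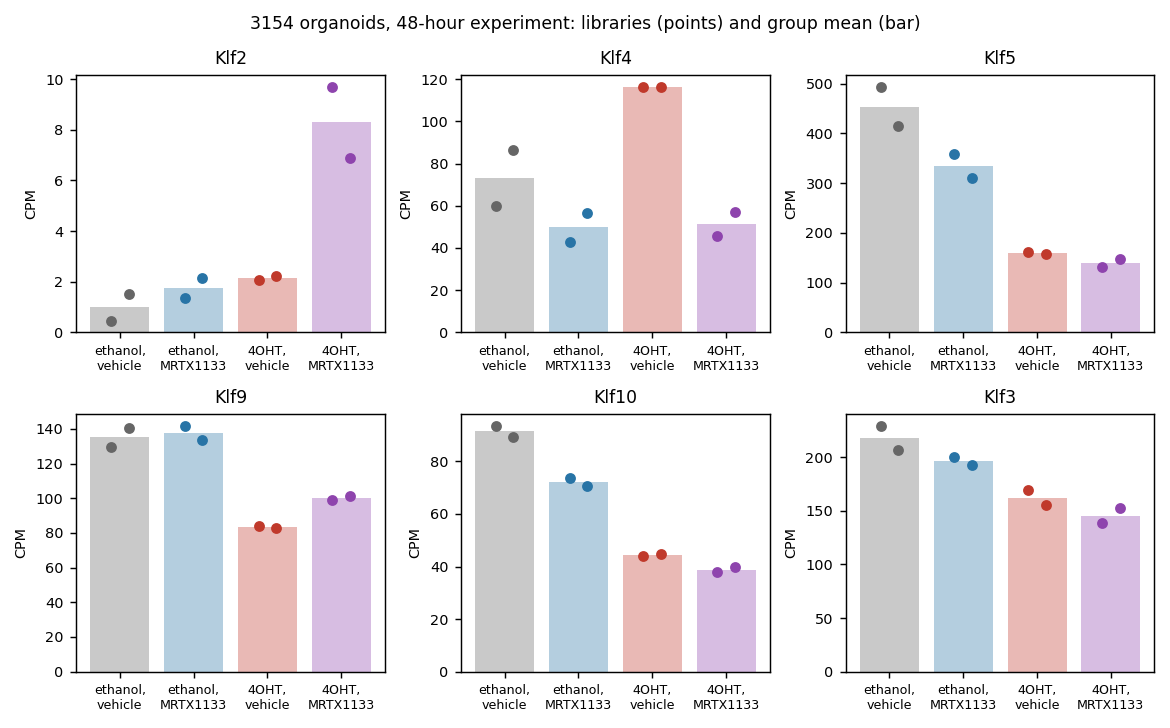
Level of 6 members in the 8 libraries of the 48-hour 3154 experiment, in CPM, with points for libraries and a bar from 0 to the group mean. Klf5, Klf9, Klf10 and Klf3 are lower in both 4OHT groups, Klf4 is highest with 4OHT alone, and Klf2 is high only with 4OHT and MRTX1133 together.

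Klf11 (ENSMUSG00000020653), a TGF-beta-inducible early gene like Klf10, rose with both inhibitors in 1027B. It was at 13.4 and 13.5 CPM with vehicle, at 20.1 and 20.2 with MRTX1133 (0.59 ± 0.13, edgeR adjusted p 0.0468) and at 22.8 and 21.7 with trametinib (0.73 ± 0.13, edgeR adjusted p 0.00892). Libraries of a group lay close together, and the inhibitor groups lay above the vehicle group. The MRTX1133 call was lost without any 1 library (0.58 to 0.61, edgeR adjusted p up to 0.204), and the trametinib call without trametinib replicate 1 (0.70, edgeR adjusted p 0.0612). In 3311 Klf11 was at 37.9 and 17.8 CPM with vehicle and at 16.8 and 15.3 with trametinib, −0.80 ± 0.33, which did not pass (edgeR adjusted p 0.0979), and the 2 vehicle libraries differed by more than the groups' nearest values did. The 3311 response differed from the 1027B response by −1.54 ± 0.43 in the joint fit (edgeR adjusted p 0.0478), but 7 of the 8 fits that left out a library lost the call (−1.99 to −0.90 over the 8 fits, edgeR adjusted p up to 0.123). Leaving out 3311 vehicle replicate 1, the high library, gave −0.90. In 3154 Klf11 lay between 9.43 and 20.5 CPM in all 12 libraries and was called in no comparison.

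Klf13 (ENSMUSG00000052040) is a Sin3-binding factor known for regulating immune and cardiac genes. Without a block it was called in H358 alone among the 11 comparisons with a vehicle. KLF13 was at 43.6 and 39.6 CPM with vehicle and at 94.0 and 87.4 with trametinib, 2.18-fold higher (1.12 ± 0.11, edgeR adjusted p 0.000147), and the call held without any 1 library. In H1651 with trametinib it was at 60.6 and 58.2 CPM against 64.2 and 62.6. The difference between the 2 human responses was 1.24 ± 0.14 (edgeR adjusted p 0.00117), and held in all 8 fits that left out a library. The joint fit of the 2 human lines called 2 of 10 members, both higher in H358, against 19.3% of genes (9.43% higher and 9.86% lower). In mouse libraries Klf13 lay between 32.9 and 100.2 CPM and was called nowhere without a block. With the replicate number as a block Klf13 passed at 2 weeks of deletion (−0.33, edgeR adjusted p 0.0499). KLF13 passed with that block in H1651 with doxycycline (0.19, edgeR adjusted p 0.00798).

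Fibroblast markers moved with the H358 responses of KLF4, KLF5, KLF9 and KLF13. All 7 were listed, and their sum was 41.2 to 50.0 CPM with vehicle and 246 to 348 with trametinib. LUM (7.76 to 12.3 and 127 to 200.4 CPM) and COL1A1 (32.3 to 36.4 and 111 to 141) made up most of the sum, COL1A2 and DCN were at 0 with vehicle and at 0.236 to 0.408 and 0.314 to 0.430 with trametinib, and PDGFRB was at 0.388 to 0.440 and 0.196 to 0.451. In the same H358 libraries the endothelial list, 6 of 7 listed, summed to 15.3 to 16.4 CPM with vehicle and 28.7 to 29.1 with trametinib, with CDH5 at 0.508 to 0.570 and 4.71 to 8.04, VWF at 1.19 to 1.84 and 7.11 to 7.35, and PECAM1 at 0.418 to 0.699 and 0 to 0.275. The 7 pan-epithelial markers there summed to 5801 to 6080 CPM with vehicle and 4177 to 4446 with trametinib and moved both ways, with KRT18 at 1101 to 1197 and 352 to 418, KRT8 at 1914 to 1924 and 865 to 999.9, and CDH1 at 432 to 465 and 833 to 1028. Of the 5 lung epithelial markers listed, FOXA2 was at 82.6 to 83.0 CPM with vehicle and 3.95 to 6.87 with trametinib, NKX2-1 was at 118 to 132 and 170.4 to 176, and SFTPB was at 0 in all 4 libraries. In 3311, beside the Klf3, Klf4 and Klf10 changes, 6 of 7 lung epithelial markers were listed and summed to 4528 to 5181 CPM with vehicle and to 534 to 624 with trametinib, with Sftpd not listed. Sftpb carried that difference (4215 to 4932 and 259 to 387 CPM), while Nkx2-1 was at 183 to 248 and 176 to 202 and Foxa2 at 63.9 to 65.3 and 58.9 to 70.0. Of 3 leukocyte markers listed of 7 in 3311, Csf1r was at 4.68 to 11.7 CPM with vehicle and 20.2 to 27.7 with trametinib, Ptprc was at 0 in all 4 libraries and Lyz2 was at 0 to 0.159. In 3154 at 2 weeks the leukocyte list, 4 of 7 listed, summed to 13.5 to 38.6 CPM with ethanol and to 4.04 to 6.07 with 4OHT, nearly all of it Csf1r (13.2 to 38.1 and 3.45 to 5.14). Ptprc was at 0.0659 to 0.314 and 0.164 to 0.375 CPM there, and Lyz2 at 0 to 0.0898 and 0.263 to 0.300. Cd3e and Cd79a were not listed in any mouse table. The part of these markers in the results was not tested.

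**Figure D4:**
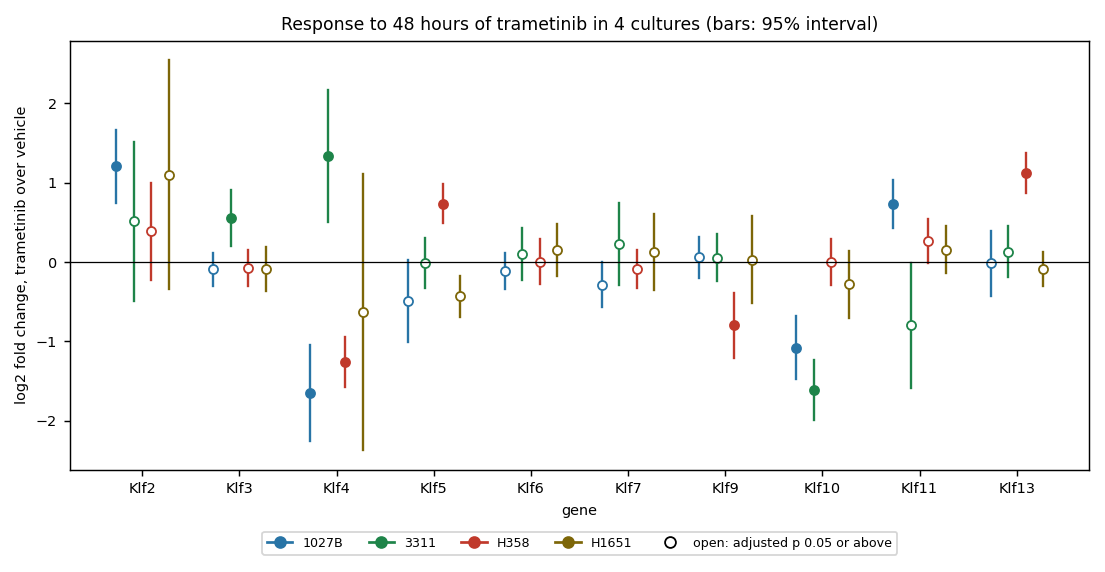
Log2 fold change of each member with 48 hours of trametinib in 1027B, 3311, H358 and H1651, with 95% intervals and filled points where the adjusted p was below 0.05. Klf4 is lower in 1027B and H358 and higher in 3311, Klf10 is lower in the 2 mouse cultures, and KLF13 is higher in H358.

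Comparisons that share no control libraries could also be set against each other. Deletion of Hnf4a at 2 weeks against 48 hours, chosen after the data were seen, differed in 0 of 10 members by edgeR, against 0.0734% of genes. DESeq2 called no member. There 1 member, Klf4, had an unadjusted p below 0.05 (−0.72 ± 0.27, edgeR adjusted p 0.294), beside 2012 of 14984 genes. MRTX1133 in 1027B against 3154 with Hnf4a intact, at 20 nM and 3 nM, was also chosen after the data were seen. It differed in 0 of 10 members by edgeR, against 0.0274% of genes, and in none by DESeq2. There 1 member, Klf4, had an unadjusted p below 0.05 (−0.84 ± 0.35), beside 611 of 14592 genes. With the replicate number as a block Klf4 passed (−0.87, edgeR adjusted p 0.0177), although whether equal numbers mark paired libraries is not known.

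The genes whose pattern was most like a member's were taken over the 22 mouse libraries, after centring each gene within its table, among 12598 genes measured in all 4 mouse tables. These are correlations across libraries that share treatments and are descriptions only. Klf5 was most like Ugp2 (r 0.977), Slc31a1 (0.968) and Ncoa4 (0.961), Klf10 was most like C9orf72 (0.975), Camk2d (0.966) and Bricd5 (0.960), and Klf2 was most like Snx4 (0.960). Klf3 was most like Sgpp2 (0.944), Klf9 like Gm5485 (0.938), Klf4 like Efnb2 (0.930), Klf7 like Ggps1 (0.899), Klf11 like Fkbp7 (0.862), Klf6 like Itprid2 (0.812) and Klf13 like Arid3a (0.742). Among the members themselves Klf5 and Klf9 were most alike (r 0.861) and Klf4 and Klf11 most opposed (−0.879).

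The ERK output list, 14 genes that ERK signalling induces, was read in the same libraries. In H358 all 14 fell, where 23.2% of all genes were called lower, with DUSP6 at 168 CPM with vehicle and 0.931 with trametinib (−7.59 ± 0.23, edgeR adjusted p 1.4e-06). In 3311 13 of 14 fell (19.6% of all genes), in 1027B 12 of 14 with trametinib (13.2%) and 6 of 14 with MRTX1133 (3.26%), in 3154 4 of 14 with MRTX1133 after deletion (2.54%) and 0 with Hnf4a intact, where 0.349% of genes were called in either direction. In H1651 0 of 14 were called with trametinib, where 0% of all genes were. The median log2 change in H1651 was −1.52 beside −0.0027 over all genes. None of the 14 was called higher with an inhibitor. In the 48-hour 3154 experiment deletion called 2 higher, Fosl1 and Ccnd1, and 3 lower with vehicle, where 31% of all genes were called, and 1 higher and 4 lower with MRTX1133, where 27.7% were. Deletion at 2 weeks called 2 higher (9.81% of genes called) and doxycycline 2 higher (1.42%).

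Other members of the wider Krüppel and Sp family numbered 16 in the list, of which 7 to 11 were tested per comparison. With Hnf4a deletion Sp6 rose at 48 hours, from 0.672 to 1.68 CPM with vehicle (1.31 ± 0.32, edgeR adjusted p 0.0172) and from 0.531 to 1.28 with MRTX1133 (1.27 ± 0.33, edgeR adjusted p 0.0245). In H358 KLF8 and KLF12 rose with trametinib (KLF12 from 26.2 to 48.7 CPM, 0.89 ± 0.14, edgeR adjusted p 0.00135) and 1 list gene fell, and in 3311 Klf16 and Sp1 fell (Sp1 from 307 to 163 CPM, −0.91 ± 0.19, edgeR adjusted p 0.0101). These were 1 of 8 tested in each 48-hour deletion comparison (31% and 27.7% of all genes called), 3 of 11 in H358 (46.8%) and 2 of 10 in 3311 (39%), all below the share of all genes. None was called in the other 7 comparisons with a control. The corepressors and coactivators that the members recruit, 9 genes, were all tested. Trametinib called 1 higher and 2 lower in H358 (46.8% of genes called), 2 higher in 3311 (39%) and 1 lower in 1027B (26.7%), deletion with MRTX1133 called 1 each way (27.7%), and the other comparisons with a control called none. In H358 HDAC1 fell from 175 to 99.8 CPM (−0.81 ± 0.11, edgeR adjusted p 0.000717) while in 3311 Hdac1 rose from 48.0 to 81.8 (0.77 ± 0.21, edgeR adjusted p 0.0264). The ERK5 and MEF2 route that induces KLF2 in endothelium was a list of 7 genes. In 3154 and 1027B the 6 genes tested were not called (0.349% to 31% of all genes called there). These are mRNA levels, and the part of this route in the Klf2 changes was not tested. Of 7 tested, 3 were called higher and 1 lower in H358 (46.8% of genes) and 1 each way in 3311 (39%), with MEF2C in H358 at 32.7 and 91.5 CPM (1.49 ± 0.12, edgeR adjusted p 5.52e-05) and Map3k2 in 3311 at 255 and 91.9 (−1.47 ± 0.24, edgeR adjusted p 0.00438).

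Hormone and clock genes, a list of 10 that holds targets of the glucocorticoid receptor, were called at 48 hours of deletion with vehicle in 6 of 9 tested, 2 higher and 4 lower, where 31% of all genes were called. Deletion with MRTX1133 called 3 of 9, 1 higher and 2 lower, beside 27.7%, and deletion at 2 weeks called 1 of 9, lower, beside 9.81%. Trametinib called 1 higher and 4 lower of 10 in 3311 (39% of genes called), 1 higher and 3 lower of 9 in H358 (46.8%) and 2 higher and 1 lower of 9 in 1027B (26.7%), MRTX1133 called 1 higher in 1027B (6.27%), and the other comparisons with a control called none. At 48 hours of deletion with vehicle Tsc22d3, a glucocorticoid-induced gene, fell from 116 to 14.2 CPM (−3.03 ± 0.34, edgeR adjusted p 0.000905), while Sgk1 rose from 2.81 to 22.5 (2.99 ± 0.24, edgeR adjusted p 0.000271). Of the 10 FOXO-response genes 7 rose and 1 fell in H358, with FBXO32 at 19.0 and 159 CPM (3.07 ± 0.22, edgeR adjusted p 3.52e-05), where 23.5% of all genes were called higher and 23.2% lower. With trametinib 5 rose and 2 fell in 3311 (19.4% and 19.6% of genes), 4 rose and 2 fell in 1027B (13.5% and 13.2%) and none was called in H1651. Deletion at 48 hours called 3 higher and 2 lower with vehicle (31% of genes called) and 3 higher and 3 lower with MRTX1133 (27.7%), and deletion at 2 weeks called 1 each way (9.81%). MRTX1133 called 2 higher in 1027B (6.27%), 1 higher in 3154 with Hnf4a deleted (4.64%) and none with it intact (0.349%), and doxycycline called 1, lower (1.42%). Of 10 genes known as targets of Krüppel-like factors, 4 to 8 were tested. Deletion called 1 higher and 3 lower of 8 at 48 hours, both with vehicle (31% of genes called) and with MRTX1133 (27.7%), and 2 lower of 8 at 2 weeks (9.81%). Trametinib called 2 higher and 3 lower of 8 in 1027B (26.7%), 1 higher and 3 lower of 7 in 3311 (39%) and 3 higher of 4 in H358 (46.8%). MRTX1133 called 1 higher of 8 in 1027B (6.27%) and 1 each way in 3154 with Hnf4a deleted (4.64%), doxycycline called 2 higher of 7 (1.42%), and the other 2 comparisons with a control called none. The intestinal alkaline phosphatase gene, a KLF4 target in gut, was called lower with deletion and higher with doxycycline, with Alpi at 13.9 CPM with ethanol and 0.0914 with 4OHT at 2 weeks (edgeR adjusted p 0.0215) and ALPI at 7.70 without doxycycline and 26.1 with it (1.76 ± 0.12, edgeR adjusted p 0.00192). The Klf4 groups themselves overlapped at 2 weeks, and Klf4 was called higher with deletion at 48 hours with vehicle. A link between the 2 genes was not tested. Cdkn1a, which encodes the cell cycle inhibitor p21, fell from 429 to 61.0 CPM with deletion in the presence of MRTX1133 (−2.81 ± 0.17, edgeR adjusted p 0.000129), and CDKN1A rose from 53.8 to 103 with doxycycline (0.94 ± 0.11, edgeR adjusted p 0.0137).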

How the data were processed

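The submitters' processing notes name cutadapt 3.5, STAR 2.7.6a and featureCounts 1.6.3 and the builds mm10, mm39 and hg38, with no role given. Per the labels, libraries were made from poly(A) RNA with a directional kit. The authors deposited raw read counts per gene in 7 tables, which were used as they stand. Each was filtered (filterByExpr), scaled by TMM and tested with edgeR 4.0.16 (quasi-likelihood F test, R 4.3.3), with adjustment over all genes of a table and a threshold of 0.05. DESeq2 1.42.0, other scalings and filters, fits of only the groups compared, a replicate block and leaving out each library were the alternatives. Differences between experiments were tested in joint fits on shared genes, 3 of them added after the data were seen. Standard errors are the log2 change over the square root of F. The 10 members are a list of names, which, like the gene and marker lists, was drawn up with earlier results of these data known. All members were tested in every comparison, and those not called are given by counts and in the plots where the text prints no value. From the other lists the rule takes up to 2 called genes with the largest change per comparison, and the text prints those that bear on a member. The likeness rule takes the most correlated genes per member.

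Library totals ranged from 19692517 to 45284286 counts. Comparing 2 replicates against 2 cannot go below an exact two-sided p of 0.333, so p-values come from the model across genes. Replicates were not duplicates, since their counts differed by 5.4 to 79.5 times the variance of sampling noise. On simulated counts with known changes the edgeR calls held more unchanged genes than the nominal share in every table. Replicate numbers were checked for pairing by the correlation of same-numbered deviations. It was 0.243 to 0.414 over the 3 pairs of groups in 1027B and −0.251 to 0.549 in the 48-hour 3154 experiment. All values and calls are from fits without the block unless it is named. In every table the labels give only a replicate number, so whether equal numbers mark paired libraries is not known. In 1027B all 3 correlations were above the limit set for pairing, 0.1. Where only 2 groups existed there was 1 correlation, from 0.126 to 0.623. Blocked values stand beside 1027B results they change and beside some results of other tables. Reference annotation was GENCODE vM21, used for exon lengths and overlapping genes. Figures were drawn with matplotlib 3.10.9. Some alleles and list genes are not reported here.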

Additional observations from a re-analysis of the deposited data

Results flagged for a closer look

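In 2 pairs of cultures the response of a member to trametinib differed by a test of the difference itself. KLF5 responded 1.20 higher (log2) in H358 than in H1651 (edgeR adjusted p 0.00169) and KLF13 1.24 higher (edgeR adjusted p 0.00117). Klf4 responded 2.97 higher in 3311 than in 1027B (edgeR adjusted p 0.00908) and Klf11 responded −1.54 (edgeR adjusted p 0.0478), a call that 7 of the 8 fits leaving out a library lost, with −0.90 without 3311 vehicle replicate 1. The 2 mouse cultures were treated at 50 nM and 10 nM, and culture and dose cannot be told apart. The comparison of 3311 with 1027B was chosen after the data were seen. With 2 libraries per group, no library was tested for standing apart within its group.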

How the results depend on the processing

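None of the 33 called pairs of member and comparison, the joint fits included, changed sign under any alternative run, while 46 of the 137 pairs not called did under at least one. Counts of called members changed as follows, with the causes not tested. With the replicate number as a block, counts of members were 6 for the 2-week deletion, 2 for MRTX1133 against trametinib in 1027B, 4 for trametinib in H1651, 6 for doxycycline, 4 for H358 against H1651 and 1 for MRTX1133 in 1027B against 3154. The labels give only a replicate number in every table. Where there was 1 pair of groups, the correlation was 0.427 at 2 weeks, 0.126 in 3311, 0.318 in H358 and 0.623 and 0.318 in H1651. The block moved no other count of members by over 1.5 times. Over all genes the number called by edgeR and by the block was 1421 and 4563 at 2 weeks, 913 and 3515 for MRTX1133 and 3880 and 6540 for trametinib in 1027B, 0 and 2050 between these inhibitors, 0 and 1881 for trametinib in H1651, 247 and 3048 for doxycycline, 4087 and 8472 for H358 against H1651, 1799 and 2759 for 3311 against 1027B, 11 and 566 for 2 weeks against 48 hours, and 4 and 366 for MRTX1133 in 1027B against 3154. DESeq2 called 2303 genes at 2 weeks, 330 against 54 for MRTX1133 with Hnf4a intact, 1334 against 717 with it deleted, 36 against 0 for the interaction, 1627 for MRTX1133 in 1027B, 712 between the inhibitors, 44 for trametinib in H1651, 451 for doxycycline, 477 for 2 weeks against 48 hours and 68 for MRTX1133 in 1027B against 3154. Fitting only the groups compared called 3154 genes against 4795 for deletion with vehicle, 0 for MRTX1133 with Hnf4a intact, 3932 with it deleted and 1 between the inhibitors, and dropping the filter called 2 for trametinib in H1651. For the members, upper-quartile scaling called 1 member at 2 weeks (1490 of 14492 genes) and 3 for deletion with MRTX1133 (4144 of 15458). A minimum of 10 counts in every library called 1 member at 2 weeks (1004 of 13022 genes). DESeq2 called 1 member for MRTX1133 against trametinib (712 of 14555 genes) and 2 for doxycycline (451 of 17351). Fitting only the groups compared called 3 members for deletion with vehicle (3154 of 14683 genes), 4 for MRTX1133 with Hnf4a deleted (3932 of 14847) and 1 for MRTX1133 in 1027B (628 of 14125). Leaving out 1 library, counts ranged from 0 to 3 at 2 weeks, 2 to 7 and 2 to 4 for the 48-hour deletions with vehicle and with MRTX1133, 0 to 0 for MRTX1133 with Hnf4a deleted and in 1027B, 3 to 4 for trametinib in 1027B, 0 to 2 for doxycycline, 2 to 3 for H358 against H1651, 2 to 4 for trametinib in 3311 and 1 to 3 for 3311 against 1027B. Scaling moved the median of all genes by at most 0.092 (log2). Klf2 had 11 to 642 counts in mouse libraries, and its values rest on few counts in the libraries at the low end.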
